A study of Homo sapiens with 6 samples.

Results

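U2AF1 is the gene whose protein is changed in this comparison, and its own transcripts were read here from splice junctions. Its junctions were taken as those on the minus strand of chromosome 21 that start and end between 44513000 and 44527750 in hg19, the window of the gene. There were 50 such junctions of 780566 in the series, of which 12 were annotated in the files and 38 were not. They held 30175 uniquely mapped reads over the 6 libraries. All carried a canonical-type splice motif code.

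The RNA was poly(A)-selected from K562, an established human chronic myeloid leukaemia line with erythroid features. In all, 3 libraries carried the label of a wild-type U2AF1 knock-in (WT) and 3 that of U2AF1 S34F. Both groups therefore share the K562 background, and the controls are themselves edited cells. The labels do not say how many clones or separate cultures were used, or whether the other alleles of the gene were intact, and p-values measure only the spread between these libraries, which may be technical. The base change of S34F cannot be read from junction counts, so the genotypes were taken from the labels.

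The protein encoded by U2AF1 is the small subunit of the U2 auxiliary factor. It contacts the AG at the 3′ end of an intron, while its partner U2AF2 binds the pyrimidine tract just upstream, and together they bring the U2 small nuclear ribonucleoprotein to the branch point. The substitution S34F lies in the first of its zinc fingers and is a recurrent change in myelodysplastic syndromes. The gene has a pair of alternative exons 3 that are normally used one in place of the other. The isoforms known as U2AF1a and U2AF1b differ by this choice in a few residues of the RNA recognition motif, and transcripts that hold both forms carry an early stop and are degraded by nonsense-mediated decay.

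The 6 libraries held from 18074706 to 39279169 unique spliced reads, of which from 2404 to 7013 lay in U2AF1. Levels are given as unique junction reads per 1000000 unique spliced reads (RPM). Fewer cells with a transcript and less of it per cell cannot be told apart in such bulk libraries. Of the lists used to check the cells, GATA1, TAL1 and HBG1/HBG2, which mark erythroid cells, summed to between 1384 and 2731 RPM in WT and between 1856 and 3741 in S34F. Most of this sum was HBG1/HBG2, at 1269 to 3602 RPM, with GATA1 at 98.0 to 149.7 RPM and TAL1 at 10.3 to 20.3 RPM. Markers of T cells (CD3E), fibroblasts (COL1A1) and hepatocytes (ALB) summed to between 10.4 and 40.0 RPM in WT and between 15.8 and 32.5 in S34F. The largest part of the second sum was COL1A1, at 8.14 to 39.5 RPM, and ALB was at 0 in WT replicates 1 and 2 and in S34F replicate 2. CD3E was at 0 in S34F replicate 1. The part of other cells in any result was not tested.

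The exon order was read from the 10 annotated junctions with at least 20 reads. Exons are numbered 1 to 8 in the direction of transcription, with a proximal exon 3 nearer to exon 2 and a distal exon 3 nearer to exon 4. Exon 2, which holds the codon altered in S34F, spans 44524425 to 44524512 and is 88 nt long. The proximal exon 3 spans 44521476 to 44521542 and the distal exon 3 spans 44520563 to 44520629. Each of these is 67 nt long, so that transcripts with either form have the same length, and those with both gain 67 nt, which is not a multiple of 3. Exon 4 has 50 nt, exon 5 has 99, exon 6 has 134 and exon 7 has 93. The other 2 annotated junctions flank a 38 nt exon from 44520687 to 44520724, and they had 8 reads and 1 read in all, the latter with an overhang of 1 nt.

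WT replicate 3 stood apart from all other libraries in its U2AF1 transcripts. In this library the exon 1 donor at 44527560 was joined past exon 2 in 178 of 445 reads, which is 40.0% (95% Clopper-Pearson interval 35.4% to 44.7%, counting error only). Of these reads, 100 went to the distal exon 3, 63 to the proximal exon 3 and 15 to exon 4. None of these 3 junctions is annotated, none had a multi-mapped read, and their largest overhangs were 49 to 50 nt.

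The same skipping was seen as 1 of 493 reads (0.203%) in WT replicate 1. It was 0 of 554 reads in WT replicate 2, which allows a share of up to 0.542%, taking 3 reads over the total as the one-sided limit for a count of 0. In S34F it was 0 of 195, 0 of 339 and 0 of 514 reads in replicates 1 to 3, which allows up to 1.54%, 0.885% and 0.584%. A junction at 20% or more of its 5′ splice site in a single library and at most 1% in the other 5 was rare: these limits, set after the values had been seen, were met by 3 of 51522 tested junctions, counted over all 6 libraries. The junction from exon 1 to the distal exon 3 was the only one of them in WT replicate 3.

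**Figure D1:**
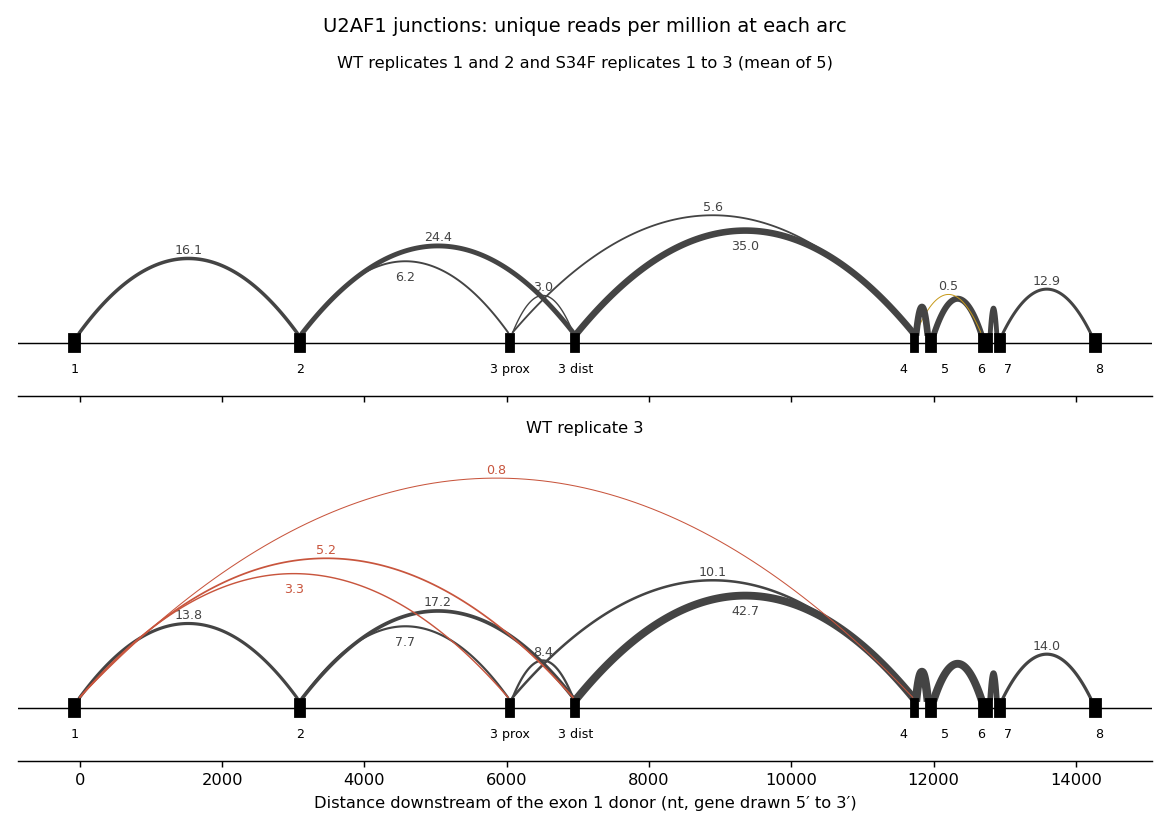
Map of U2AF1 with exons as black boxes (drawn slightly wider than to scale) and junctions as arcs, by distance in nt downstream of the exon 1 donor. Junctions of the lowest level, and those with a splice site other than those of the numbered exons, are not drawn. The unannotated junction that skips exon 5 is a gold arc in the upper panel. In WT replicate 3 it was at 0.155 RPM and is not drawn. Numbers and line widths give unique reads per 1000000 (RPM), as the mean of 5 libraries above and in WT replicate 3 below; red arcs are the junctions that skip exon 2, of 5.16, 3.25 and 0.774 RPM in WT replicate 3.

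Exon 2 is 88 nt long, which is not a multiple of 3, so its loss alone would shift the reading frame. The exon 1 donor was used at 19.4, 22.2 and 23.0 RPM in WT replicates 1 to 3, and the part of it that went to exon 2 was 18.95, 22.0 and 13.8 RPM. WT replicate 3 was thus the highest of the WT libraries in the use of exon 1 and the lowest in its junction to exon 2. At the next step, the exon 2 donor was used at 38.7, 37.0 and 24.9 RPM in WT replicates 1 to 3, while the junctions from exon 4 to exon 8 summed to 129.6, 118.8 and 132.8 RPM. From exon 2 to the distal exon 3 the values were 29.0, 29.4 and 17.2 RPM in WT replicates 1 to 3. To the proximal exon 3 they were 9.67, 7.26 and 7.69 RPM, so WT replicate 3 was not the lowest there. The drop in WT replicate 3 was therefore seen from exon 1 to exon 2 and from exon 2 to the distal exon 3. It was not seen downstream of exon 3.

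The exon-2-skipping reads used both exon 3 forms. Among those of WT replicate 3 that went to either form, the proximal share was 38.7% (95% Clopper-Pearson interval 31.1% to 46.6%), against 30.9% (26.8% to 35.3%) in the reads of that library that included exon 2. These intervals overlap. With skipping present in a single library, the group comparison of this event has no replicate: edgeR gave adjusted p = 0.69 for the share of the exon 1 donor that went to exon 2, at 85.6% ± 22.2 in WT and 98.3% ± 1.1 in S34F (mean ± SD, n = 3 each). Without WT replicate 3 the change in log2 odds went from 2.05 (SE 2.18) to -0.30. Differences between the groups in U2AF1 are also given without this library where its absence moves them by over 1.5 times or turns their sign.

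**Figure D2:**
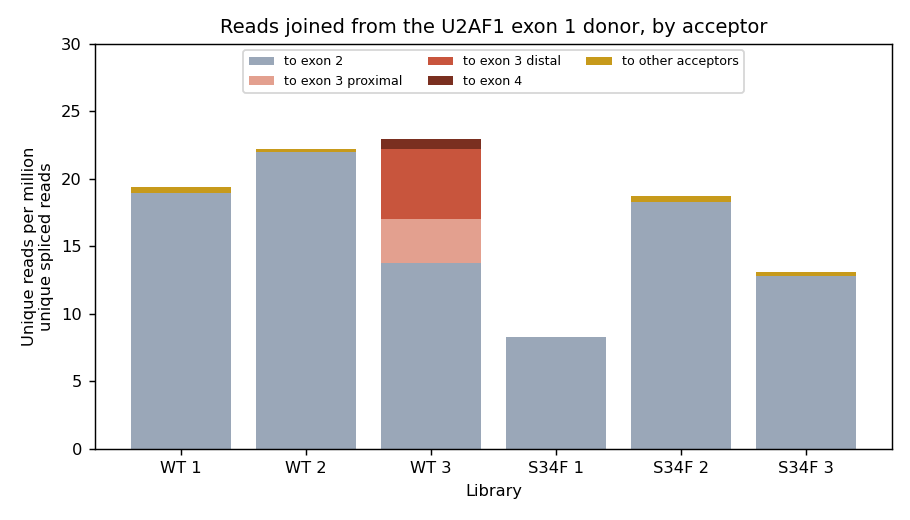
Unique reads per 1000000 unique spliced reads (RPM) joined from the exon 1 donor in each library, stacked by the acceptor they were joined to. WT replicate 3 reaches 23.0 RPM in all, of which 13.8 go to exon 2; the other 5 libraries have almost no reads past exon 2.

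The summed level of U2AF1 was lower on average in S34F, without passing the test. Summed over all its junctions, the gene was at 244.7, 228.59 and 242.8 RPM in WT replicates 1 to 3 and at 102.5, 228.55 and 178.5 RPM in S34F replicates 1 to 3. S34F replicate 1 was far below the rest, and S34F replicate 2 was level with WT replicate 2, so that the groups touch. The means were 238.7 ± 8.8 in WT and 169.9 ± 63.5 in S34F (SD, n = 3 each), a ratio of 0.712. An exact permutation test (two-sided) gave p = 0.1, below which 3 against 3 libraries cannot go, and 0.25 after adjustment over the 10 single values tested. Without S34F replicate 1 the difference of -68.8 RPM became -35.1, and without WT replicate 3 it was -66.8. With TMM-scaled library sizes the groups overlapped (exact permutation p = 0.3). Restricted to an overhang of at least 20 nt, the exact permutation p was 0.2. For the median annotated junction it was 0.5 (difference -3.94 RPM). The exon 1 donor was at 8.31, 18.8 and 13.1 RPM in S34F, below all WT libraries (exact permutation p = 0.1, adjusted p = 0.25). The junctions from exon 4 to exon 8 summed to 54.2, 121.8 and 97.2 RPM in S34F, and the groups overlapped (exact permutation p = 0.2).

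All 10 annotated junctions with enough reads to be tested had a lower fitted level in S34F, from -0.25 to -1.13 in log2 fold change with a median of -0.50. Over all 98802 junctions tested, 48.7% were lower and the median was 0.01. None of the 10 was called at an edgeR adjusted p under 0.05, against 0.233% of all junctions, while an unadjusted p under 0.05 was reached by 3 of them, against 14.0%. DESeq2 called 1 of the 10, against 1.42% of all. These junctions lie in the same transcripts, so their shared direction is not 10 separate observations.

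The junction from the proximal exon 3 to exon 4, which is made only by transcripts that use the proximal form alone, had the largest log2 fold change in level of the 10, though not the largest difference in RPM. It was at 8.30, 7.82 and 10.1 RPM in WT and at 2.56, 5.92 and 3.62 RPM in S34F. Every S34F library was below every WT library. The log2 fold change was -1.13 (SE 0.30, edgeR adjusted p = 0.16), and its DESeq2 adjusted p was 0.025. It passed with edgeR without S34F replicate 2 (adjusted p = 0.020) and with no low-count filter (adjusted p = 0.0011), and over the other edgeR alternatives its adjusted p was from 0.086 to 0.44, the highest without WT replicate 3.

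The junction into the proximal exon 3 from exon 2 was at 9.67, 7.26 and 7.69 RPM in WT and at 2.64, 6.58 and 4.96 RPM in S34F. The groups again did not overlap, with a log2 fold change of -0.81 (SE 0.32, edgeR adjusted p = 0.30). The junction from exon 4 to exon 5, common to the isoforms, was at 42.9, 44.3 and 46.5 RPM in WT and at 19.3, 39.7 and 31.5 RPM in S34F, with a log2 fold change of -0.56 (SE 0.25, edgeR adjusted p = 0.35). Without S34F replicate 1 the change at this junction was -0.31 and at that from exon 2 to the proximal exon 3 -0.52. These 3 junctions were those of the 10 whose groups did not overlap, as was the case for 17.8% of all junctions tested.

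At the other annotated junctions the groups overlapped. The junction from exon 2 to the distal exon 3, the major form, was at 29.0, 29.4 and 17.2 RPM in WT and at 13.6, 27.8 and 22.3 RPM in S34F. WT replicate 3 was low here. The log2 fold change went from -0.25 to 0.0039 without S34F replicate 1 and to -0.45 without WT replicate 3. From the distal exon 3 to exon 4 the values were 41.8, 39.95 and 42.7 RPM in WT and 18.9, 41.1 and 33.1 RPM in S34F, so that S34F replicate 2 lay within the WT range. The last junction, from exon 7 to exon 8, was at 16.6, 13.5 and 14.0 RPM in WT and at 6.18, 15.4 and 12.9 RPM in S34F. The fitted changes at the junctions from exon 5 to 6 and from exon 6 to 7 were -0.53 (SE 0.29) and -0.36 (SE 0.31). Without S34F replicate 1 they were -0.25 and -0.068, and the changes from exon 7 to exon 8 and from the distal exon 3 to exon 4 went from -0.36 to -0.049 and from -0.42 to -0.15. S34F replicate 1 was the lowest library at each of the 10 junctions.

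**Figure D3:**
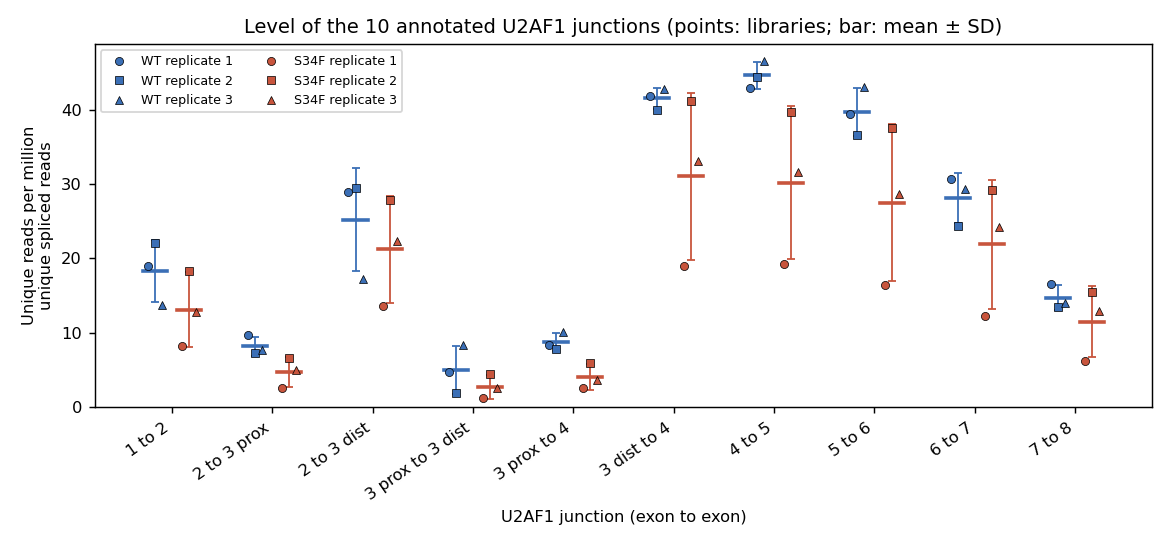
Unique reads per 1000000 unique spliced reads (RPM) at each of the 10 annotated junctions of U2AF1, with a point per library and bars for the mean ± SD of 3 libraries. S34F replicate 1 is the lowest point at every junction, and WT replicate 3 is the lowest WT library at the junction from exon 1 to exon 2 (13.8 RPM) and at that from exon 2 to the distal exon 3 (17.2 RPM).

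The choice between the exon 3 forms was counted within the gene's own reads, so that library size and the level of the gene do not enter. Of the reads from the exon 2 donor at 44524424 that went to either form, the proximal exon 3 took 25.0%, 19.8% and 30.9% in WT replicates 1 to 3 and 16.3%, 19.1% and 18.2% in S34F replicates 1 to 3. Transcripts that hold both forms count as proximal in this share, so it is not the use of the proximal form alone. The distal form was the major one in every library. All S34F values were below all WT values, but WT replicate 2 (95% Clopper-Pearson interval 17.2% to 22.5%) and S34F replicate 2 (16.1% to 22.4%) lay within counting error of each other. The means were 25.2% ± 5.6 in WT and 17.9% ± 1.5 in S34F (SD, n = 3 each). S34F minus WT was -7.37 percentage points.

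An exact permutation test of this difference (two-sided) gave the smallest possible p, 0.1, and an adjusted p of 0.25 over the 10 single values. In the edgeR fit over all acceptor usage events the proximal junction changed by -0.60 in log2 odds (SE 0.33, adjusted p = 0.33). Without WT replicate 3, in which the proximal share was highest, the difference was -4.53 percentage points and the edgeR adjusted p was 0.59. When the reads that skip exon 2 were added to those from exon 2, a setting chosen after the data had been seen, it was -8.01 percentage points.

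The downstream side was counted at the exon 4 acceptor at 44515854, where transcripts that hold both forms count as distal. Of the reads that entered exon 4 from either form, the proximal exon 3 gave 16.5%, 16.4% and 19.1% in WT and 11.9%, 12.6% and 9.84% in S34F. The groups did not overlap, and the gap between them was wider than at the exon 2 donor. The means were 17.3% ± 1.5 and 11.4% ± 1.4 (SD, n = 3 each), with an exact permutation p of 0.1 (adjusted p = 0.25). Without WT replicate 3 the difference went from -5.88 to -5.02 percentage points. In the edgeR fit over all donor usage events the change was -0.70 in log2 odds (SE 0.33, adjusted p = 0.28).

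The junction between the exon 3 forms marks transcripts that hold both. Its share of the proximal donor was 36.1%, 19.4% and 45.3% in WT and 33.0%, 42.8% and 41.3% in S34F. The WT libraries spanned more than the whole S34F range, and the means of 33.6% ± 13.1 and 39.0% ± 5.3 (SD, n = 3 each) differed by less than the spread between WT replicates (exact permutation p = 0.7). S34F minus WT was 5.45 percentage points, and 11.3 without WT replicate 3, where WT replicate 1 still lay within the S34F range. WT replicate 3 had both the most reads that skip exon 2 and the highest share of this junction, with 162 reads, or 8.36 RPM against 4.68 and 1.89 RPM in WT replicates 1 and 2. In S34F the level was 1.28, 4.43 and 2.55 RPM. The log2 fold change of this level went from -0.87 to -0.28 without WT replicate 3 and to -0.52 without S34F replicate 1.

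**Figure D4:**
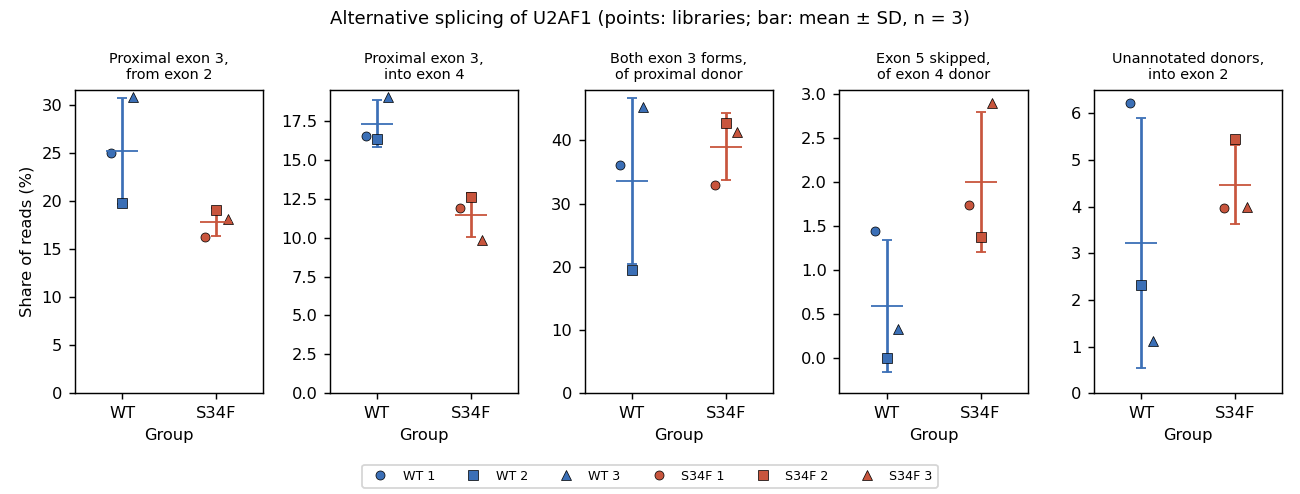
Shares of reads in percent for 5 splicing choices within U2AF1, with a point per library and the mean ± SD of 3 libraries per group. In the first and second panels the S34F points lie below all WT points (17.9% against 25.2% and 11.4% against 17.3% on average), and in the other panels the groups overlap.

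Skipping of exon 5, by an unannotated junction from exon 4 to exon 6, was rare. Exon 5 has 99 nt, a multiple of 3. The skipping reads were 16, 0 and 3 in WT replicates 1 to 3 and 8, 10 and 37 in S34F replicates 1 to 3, which was 1.44%, 0% and 0.331% of the exon 4 donor in WT and 1.74%, 1.37% and 2.90% in S34F. The count of 0 in WT replicate 2 allows a share of up to 0.271%. WT replicate 1 lay above S34F replicate 2, so the groups overlapped. The change was 1.86 in log2 odds (SE 0.64, edgeR adjusted p = 0.089), which is no call. With the replicate number as a block it was 2.07 (edgeR adjusted p = 0.033), and with DESeq2 it was 2.30 (adjusted p = 0.32). Over the fits that lack a single library it ranged from 1.21 without WT replicate 2 (edgeR adjusted p = 0.28) to 3.72 without WT replicate 1 (edgeR adjusted p = 0.0018), and the highest adjusted p was 0.44, without S34F replicate 3. With shares of at most 2.90% in every library, the difference could not reach the 10 percentage points needed for a call. That threshold therefore does not bear on whether the share changed.

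Intron 1 held unannotated splice sites with few reads. A 54 nt exon from 44525612 to 44525665 was joined to exon 2 by 24, 11 and 1 reads in WT and by 4, 12 and 12 reads in S34F. The junction from exon 1 to it had 7, 4 and 0 reads in WT and 0, 6 and 5 in S34F. Unannotated donors in all took 6.23%, 2.31% and 1.11% of the reads into exon 2 in WT and 3.96%, 5.44% and 4.00% in S34F (exact permutation p = 0.5). The S34F values lay inside the WT range. S34F minus WT was 1.25 percentage points, and 0.199 without WT replicate 3. The 33 unannotated junctions of U2AF1 with fewer than 20 reads in all, that from exon 1 to exon 4 among them, had from 0 to 19 unique reads each over the 6 libraries, with a median of 2 and 116 reads in all.

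In total, unannotated junctions took 1.09%, 0.579% and 4.19% of the U2AF1 reads in WT and 0.915%, 1.07% and 1.08% in S34F. WT replicate 3 was the high library, through the junctions that skip exon 2, although its unannotated share over all genes was 1.15%, within the range of 1.03% to 1.38% of the libraries. S34F minus WT was -0.93 percentage points, and 0.185 without WT replicate 3. Multi-mapped reads made up 3.04%, 3.50% and 2.77% of the reads at U2AF1 junctions in WT and 3.72%, 2.98% and 2.97% in S34F. Their groups overlapped (exact permutation p = 0.7), and the difference of 0.123 percentage points became -0.044 without WT replicate 3.

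Over the whole gene, none of the 11 U2AF1 junctions tested for acceptor usage was called by edgeR, against 2.11% of all 51522 events, and 3 had an unadjusted p under 0.05, against 19.9%. Those 3 were exon 5 skipping, its normal counterpart and the junction from exon 1 to exon 4. None of the 13 junctions tested for donor usage was called, against 0.934% of 48269, and 5 had an unadjusted p under 0.05, against 17.3%. Those 5 were exon 5 skipping, its normal counterpart, the junctions from each exon 3 form to exon 4, and an unannotated junction. The last joined intron 1 to exon 2, had fewer than 20 reads in all and was higher in S34F. DESeq2 also called 0 of the 11, against 0.291% of all, and 0 of the 13, against 0.383%.

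Other factors of 3′ splice site recognition were read by the same junction level fit. They were U2AF2, the large subunit, U2AF1L4 and ZRSR2, which are relatives of U2AF1, SF1, which binds the branch point, SF3B1 and DHX15 of the U2 complex, SUGP1, which joins DHX15 to SF3B1, and RBM39, a relative of U2AF2. Of their 121 tested junctions, 0 rose and 0 fell by edgeR or by DESeq2, against 0.233% and 1.42% of all junctions called. At an unadjusted edgeR p under 0.05, 19 were higher and 3 lower in S34F, where 6.93% and 7.02% of all junctions were. The higher ones lay in RBM39 (8), SF1 (5), SUGP1 (5) and ZRSR2 (1), and the lower ones in U2AF2 (2) and DHX15 (1). Junctions of the same gene lie in the same transcripts, so these counts are not separate observations.

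U2AF2 was at 292.8, 330.8 and 345.6 RPM in WT and at 244.8, 239.0 and 330.5 RPM in S34F. Its S34F libraries lay partly below the WT range. The median log2 fold change of its 13 tested junctions was -0.25. Genes were ranked by the root mean square difference from U2AF1 in log2 level over the 6 libraries, each gene centred on its own mean. DHX15 (0.384) and U2AF2 (0.393) had the smallest difference of the 8 genes, and SUGP1 (0.654) the largest. The value of a gene at the same level in every library was not set beside these. The ranking therefore does not show that any gene shared the pattern of U2AF1. DHX15 was at 225.1, 274.2 and 252.0 RPM in WT and at 202.8, 216.4 and 253.2 RPM in S34F. In DHX15 too S34F replicate 1 was the lowest library.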

How the data were processed

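The deposited tables list splice junctions in the 9-column layout of the STAR aligner, 1 per library, and STAR and hg19 are named in the submitters' processing notes. Versions, annotation and junction filters are not given in the sources used here. The values used were the deposited raw counts of unique and multi-mapped reads per junction, which the authors did not normalize as far as the whole numbers show. Where a table did not list a junction, its count was set to 0.

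Junction levels were fitted with edgeR 4.0.16 (quasi-likelihood, TMM, R 4.3.3) over all junctions with a mean of at least 20 reads. Shares at a 5′ or 3′ splice site were fitted with an intercept per library and the interaction of junction with S34F. These needed at least 20 reads at the site in every library and 10 on each side. Calls needed a Benjamini-Hochberg adjusted p under 0.05 and, for shares, 10 percentage points. Standard errors (SE) were derived as the fitted coefficient over the root of its F statistic. DESeq2 1.42.0 was an alternative. The fits were also run on simulated data whose spread was the same in every library. Those runs therefore do not bear on libraries that stand apart, such as WT replicate 3 and S34F replicate 1. Other genes were found by hg19 windows, whose annotated junctions spanned from 91.3% to 98.6% of the RefSeq gene length (GRCh38.p14) for the 8 factors. Junctions are named if annotated or with at least 20 reads in all; the exon 1 to exon 4 junction, with 15, was named after its values were seen.

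The gene, its members and the lists were chosen with earlier results of these data known. Same-numbered libraries did not deviate together, with correlations of -0.19, -0.15 and -0.0057 over 98802 junctions, so the numbers were not used as pairs. Some marker genes of the cell check are not reported here.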

Additional observations from a re-analysis of the deposited data

How the results depend on the processing

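The limits come first from the libraries: 3 per group allow no permutation p below 0.1, U2AF1 had from 2404 to 7013 unique reads per library, and WT replicate 3 and S34F replicate 1 stood apart in several measures. All alternatives but the addition of exon-2-skipping reads to the exon 3 choice were listed before the fits. Of the alternative counts of U2AF1 calls, 32 were 0 as in the fits reported and 5 were not. The 24 alternative values of the summed level and the exon 3 choice kept their sign; their permutation tests cannot pass 0.05 at this size. For acceptor usage the count of U2AF1 calls went from 0 to 1 with the replicate block, where the junction from exon 1 to exon 2 passed (edgeR adjusted p = 0.035). Its share was 60.0% in WT replicate 3 and 97.3% to 99.5% in the other libraries. For donor usage the count went from 0 to 1 with the replicate block. Only the junctions from exon 2 to each exon 3 form reached the 10 percentage points needed for a call there. WT replicate 3 was the lowest library at both, at 55.9% (distal) and 69.0% (proximal). For junction levels the count went from 0 to 1 with DESeq2 and from 0 to 1 with no low-count filter. Over the fits that lack a single library, the calls ranged from 0 to 0 for acceptor and donor usage and from 0 to 1 for junction levels (1 without S34F replicate 2). The differences ranged from -98.2 to -35.1 RPM for the summed level and from -10.1 to -4.53 percentage points for the exon 3 choice. With the replicate block the summed level differed by -68.8 RPM and the exon 3 choice by -7.37 percentage points, each with an exact sign-flip p of 0.25, the smallest that 3 pairs allow. The sign turned for the junction from exon 1 to exon 2 without WT replicate 3 (log2 odds -0.30, against up to 3.23 without other libraries) and for the level from exon 2 to the distal exon 3 without S34F replicate 1 (log2 fold change 0.0039, against down to -0.57). The causes of these shifts were not tested.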
